A study of Mus musculus with 4 samples.

Results

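A set of 30 genes of cholesterol synthesis and lipogenesis listed by name for what their proteins do was followed on 4 arrays of the *Ip6k2* series. They are 30 of the 32585 genes or identifiers on the array, all 30 were represented, and 45 probes carry their names. By role they fall into 6 genes of the mevalonate segment, 11 of the squalene and sterol segment, 4 regulators and carriers (*Insig1*, *Srebf1*, *Srebf2* and *Stard4*) and 9 lipogenic genes. Spinal cord and duodenal RNA came from male mice aged 20 weeks, either IP6K2-KO animals, which lack exon 6 of *Ip6k2*, part of its kinase domain, or their WT littermates. Both genotypes had been moved from the plant-based diet CE-2 to a purified one, iVid-neo, 1 week before they went without food for 48 h, so every array describes the fasted state and no fed mouse was measured. A single array was hybridized for each genotype and tissue. Mouse, dissection and genotype therefore cannot be told apart, and the number of arrays limits every difference below to a description, without a test or a replicate. The labels do not say whether both tissues of a genotype came from the same mouse.

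Cholesterol is built from acetyl-CoA through mevalonate and squalene, and the first committed product of fatty acid synthesis, malonyl-CoA, comes from the same acetyl-CoA. The transcription factors SREBP-1 and SREBP-2 (*Srebf1*, *Srebf2*) switch on both pathways when sterols are low, and the membrane protein encoded by *Insig1*, itself a target, holds them back when sterols are plentiful. In the spinal cord the myelin-forming oligodendrocytes make their own cholesterol because lipoproteins do not pass the blood-brain barrier, whereas the duodenal epithelium takes up cholesterol and fat from the diet and also synthesizes sterols.

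The regulatory DNA of these genes is shown first, because many of these genes are known targets of the SREBP factors. RefSeq promoter windows of 300 bases (GRCm38.p6, from 250 bases before to 50 after the start of transcription, written 5′ to 3′) were matched for 24 of the 30 genes. The letters ATTGG, which read CCAAT on the other strand and are the core of the box bound by NF-Y, a factor known to work beside SREBP, were found on either strand in 22 of the 24 genes. The same letters were found in 42.3% of the 15984 genes on the array that have a window, and in 37.4% of all 32851 windows. Of the 24 genes, 10 held ATTGG at least 2 times, against 14.4% of the genes on the array. The E-box letters CACGTG were found in 4 of the 24 genes (*Hsd17b7*, *Sc5d*, *Dhcr7* and *Insig1*) and in 9.50% of the genes on the array, and the sterol regulatory element spelled TCACNCCAC in 1 of the 24 and in 1.42%. CACCCCAC, which overlaps that spelling, was found in the same gene, *Hmgcs1*, and in 3.50% of the genes on the array. A match of letters is a description of the window and not a site. The windows of 4 genes are printed, with every match in capitals: *Hmgcs1* because it alone holds the sterol element spelling, *Mvk* because it holds the most ATTGG matches and lies at the 2-fold line in the duodenum, *Insig1* as the feedback gene, and *Ebp* because it stood highest in the duodenum relative to the spinal cord.
*Hmgcs1*, chr13:119690101-119690400, + strand: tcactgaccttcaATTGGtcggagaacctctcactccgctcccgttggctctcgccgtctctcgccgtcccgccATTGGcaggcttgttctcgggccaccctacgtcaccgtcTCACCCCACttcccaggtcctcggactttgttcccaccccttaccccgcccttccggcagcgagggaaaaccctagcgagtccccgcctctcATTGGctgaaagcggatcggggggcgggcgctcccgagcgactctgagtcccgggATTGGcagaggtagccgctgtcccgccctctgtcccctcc
*Mvk*, chr5:114444019-114444318, + strand: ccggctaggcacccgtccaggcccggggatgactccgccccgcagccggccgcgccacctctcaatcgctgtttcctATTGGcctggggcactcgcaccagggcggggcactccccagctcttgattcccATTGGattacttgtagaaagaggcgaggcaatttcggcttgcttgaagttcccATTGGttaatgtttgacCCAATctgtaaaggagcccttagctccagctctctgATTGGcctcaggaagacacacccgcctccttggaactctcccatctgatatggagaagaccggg
*Insig1*, chr5:28071162-28071461, + strand: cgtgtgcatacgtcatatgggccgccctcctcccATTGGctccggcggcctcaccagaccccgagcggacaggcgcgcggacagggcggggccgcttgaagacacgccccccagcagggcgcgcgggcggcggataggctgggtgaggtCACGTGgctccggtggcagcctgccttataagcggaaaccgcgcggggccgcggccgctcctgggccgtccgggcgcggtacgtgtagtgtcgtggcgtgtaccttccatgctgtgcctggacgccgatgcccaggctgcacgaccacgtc
*Ebp*, chrX:8193463-8193762, − strand: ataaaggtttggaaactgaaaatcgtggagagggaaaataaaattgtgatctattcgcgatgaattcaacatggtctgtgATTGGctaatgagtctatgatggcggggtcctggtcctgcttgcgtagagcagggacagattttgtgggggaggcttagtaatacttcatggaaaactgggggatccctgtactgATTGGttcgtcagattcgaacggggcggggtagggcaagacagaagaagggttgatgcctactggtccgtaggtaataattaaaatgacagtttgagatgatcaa
*Hmgcs1*, *Mvk*, *Insig1* and *Ebp* held 4, 5, 1 and 2 ATTGG matches in these windows.

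Values are log2 of the processed signal, the background-subtracted and detrended brightness of a spot, minus the 75th percentile of the array. The arrays did not stand alike. In the spinal cord the 75th percentile was 905 (WT) and 971 (labelled KO), in the duodenum it was 68.0 (WT) and 323 (labelled KO), and between 51.6% (WT duodenum) and 77.3% of 39429 probes were well above background. The WT duodenum array was the dimmest for cellular RNA and the brightest for the 8 spiked-in control probes, whose mean signal was 2041, against 1209 on the other duodenum array and 826 and 997 in the spinal cord. The targeted gene *Ip6k2* gave signals of 452 and 1320 in WT and KO-labelled spinal cord and 139 and 572 in WT and KO-labelled duodenum. It thus went against its label in the spinal cord, higher by 1.45, and differed by −0.21 in the duodenum. The position of its probe relative to exon 6 could not be read from the files, so directions below are for the array labelled KO.

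The labelled tissues were borne out by their markers. The duodenum arrays had all 6 enterocyte markers (*Vil1*, *Fabp2*, *Apoa1*, *Apoa4*, *Alpi* and *Sis*) well above background, with summed levels of 2234 and 945 in WT and KO-labelled duodenum, in units of the 75th percentile of the array, against 0.0538 and 0.0564 in the spinal cord. The 6 oligodendrocyte markers were all well above background in the spinal cord, with summed levels of 231 and 241, and summed to 4.47 and 6.08 in the duodenum. One of them, *Mbp*, was not lower in the duodenum after scaling, with differences from the spinal cord of 0.17 and 0.70 in the WT and KO-labelled pair. Pancreatic acinar markers were also bright in both duodenum samples, with summed levels of 7340 and 2648.

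**Figure D1:**
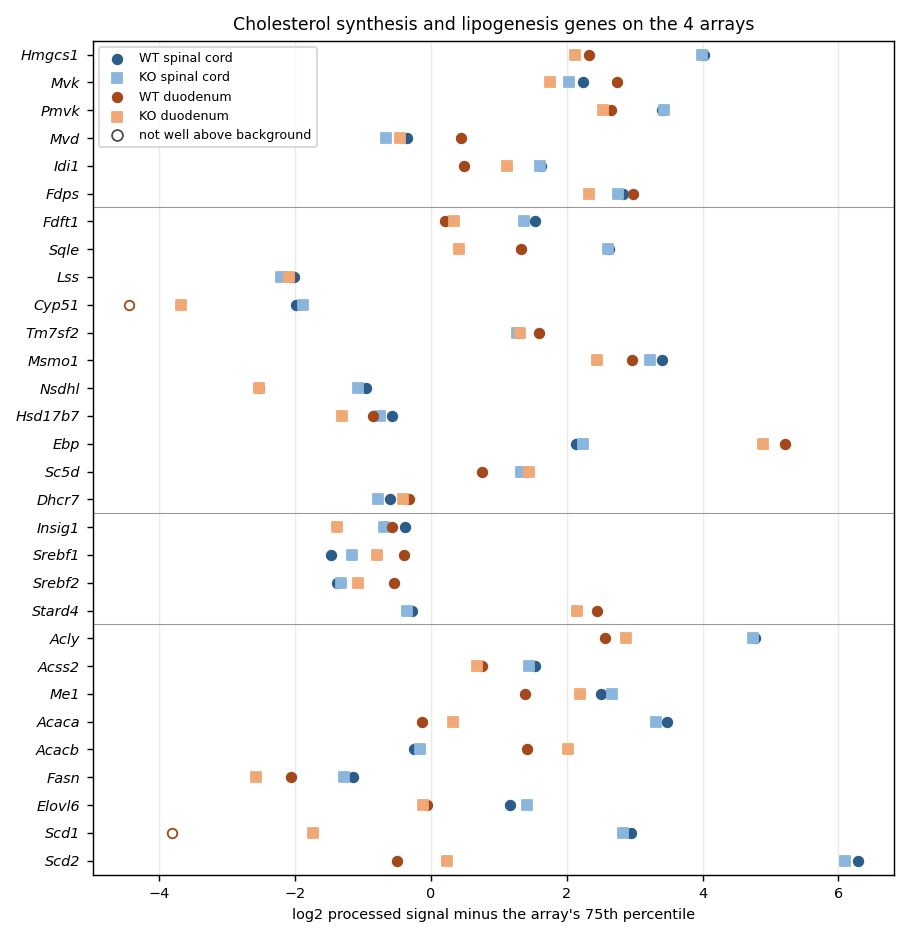
Level of each of the 30 genes on each array, as log2 processed signal minus the 75th percentile of the array (x axis), by role from the mevalonate segment at the top to lipogenesis at the bottom. Open circles were not well above background. Points of a row can be compared with each other but not between rows, because probes differ in brightness for a given amount of RNA. The spinal cord points of a gene lie close together, while *Scd1*, *Scd2* and *Acaca* lie far lower in the duodenum and *Ebp* and *Stard4* far higher.

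In the spinal cord, no gene of the module differed by as much as 2-fold between the labels. All 30 were well above background on both arrays, and the differences ran from −0.32 (*Insig1*) to 0.32 (*Srebf1*) on the log2 scale with a median of −0.075. Over all 25184 genes with a value the median was −0.037, and 89.0% lay within 0.5 of 0, as all 30 members did. At least 2-fold higher were 2.3% of the 25222 genes measured and at least 2-fold lower 0.868%, so 0 members in either direction lies close to what those shares give for 30 genes.

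Several enzymes of both pathways were nearly level across the spinal cord arrays. *Hmgcs1*, the synthase that feeds the mevalonate pathway, had signals of 14628 and 15409 in WT and KO-labelled spinal cord. *Sqle*, squalene epoxidase, had 5558 and 5912, and *Acly*, which makes cytosolic acetyl-CoA from citrate, had 24645 and 25885. After scaling these 3 genes differed by −0.027, −0.012 and −0.031, each less than its technical SD of 0.057, 0.059 and 0.057. This SD was taken from gene probes with 10 spots per array at like brightness, so it covers spots and not mice. *Acaca*, which makes malonyl-CoA, had 10075 and 9674 and differed by −0.16, more than its SD of 0.058.

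The members farthest from 0 in the cord were regulators, elongation and the decarboxylase *Mvd*. *Insig1* had signals of 696 and 600 (−0.32, technical SD 0.063) and *Mvd* 706 and 613 (−0.31, SD 0.063), both lower on the KO-labelled array. *Srebf1* had 325 and 436 (0.32, SD 0.064) and *Elovl6*, which lengthens palmitate, 2021 and 2586 (0.25, SD 0.057), both higher. The *Srebf1* value was 0.32 to 0.36 above the median gene under each of 8 alternative treatments of the arrays. *Insig1* and *Mvd* moved above the median gene (by 0.10 and 0.049) only under normexp background correction without replaced local backgrounds. With flagged backgrounds replaced, they differed by −0.25 and −0.33, below the median gene at −0.050. The highest local background was 15708 in WT cord, against 47 in KO-labelled cord. Its part in the change of side was not tested.

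Markers of other tissues moved between the same spinal cord arrays while the module did not. All 5 skeletal muscle markers were higher on the KO-labelled array, with summed levels of 2.22 and 38.8 in WT and KO-labelled cord, as were 3 of 4 Schwann cell markers (1.91 and 13.1) and all 3 erythroid markers (1.95 and 4.80). Of the 4 brown adipocyte markers, 3 were at least 2-fold lower on the KO-labelled array, with summed levels of 4.45 and 3.04. Among them *Ucp1*, the uncoupling protein of brown fat, had signals of 404 and 13.4, while the remaining marker, *Cox8b*, was higher by 0.61 (1012 and 1656). White adipocyte markers summed to 3.12 and 2.13, 2 of 5 measured were at least 2-fold lower, *Cfd* was higher by 0.92 (428 and 871), and *Lep* was not well above background on any array. The 9 lipogenic genes, which fat also uses, lay between −0.19 and 0.25 in the cord, with *Fasn* at −0.13, *Scd1* at −0.12 and *Acacb* at 0.092. The part of these tissues in the values of the module was not tested.

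In the duodenum the module spread wider, from −0.997 to at least 2.08. All members but a pair (28 of 30) were well above background on both duodenum arrays. *Scd1* and *Cyp51* were so only on the KO-labelled one, and their differences are lower bounds against the dim array that leave out spot noise. The median over the 30 was −0.11, with 10 members higher and 20 lower, against a median of −0.051 over 18052 genes with a value. One member, *Scd1*, was at least 2-fold higher, where 7.2% of the 21435 genes measured were, and 0 were at least 2-fold lower, where 11.9% were. These counts are small for 30 genes and depend on the cutoff. At 1.5-fold, 6 members were higher, where 17.0% of all genes were, and 5 were lower, where 22.6% were. As these are whole tissues, fewer cells of a type and less RNA per cell cannot be told apart.

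**Figure D2:**
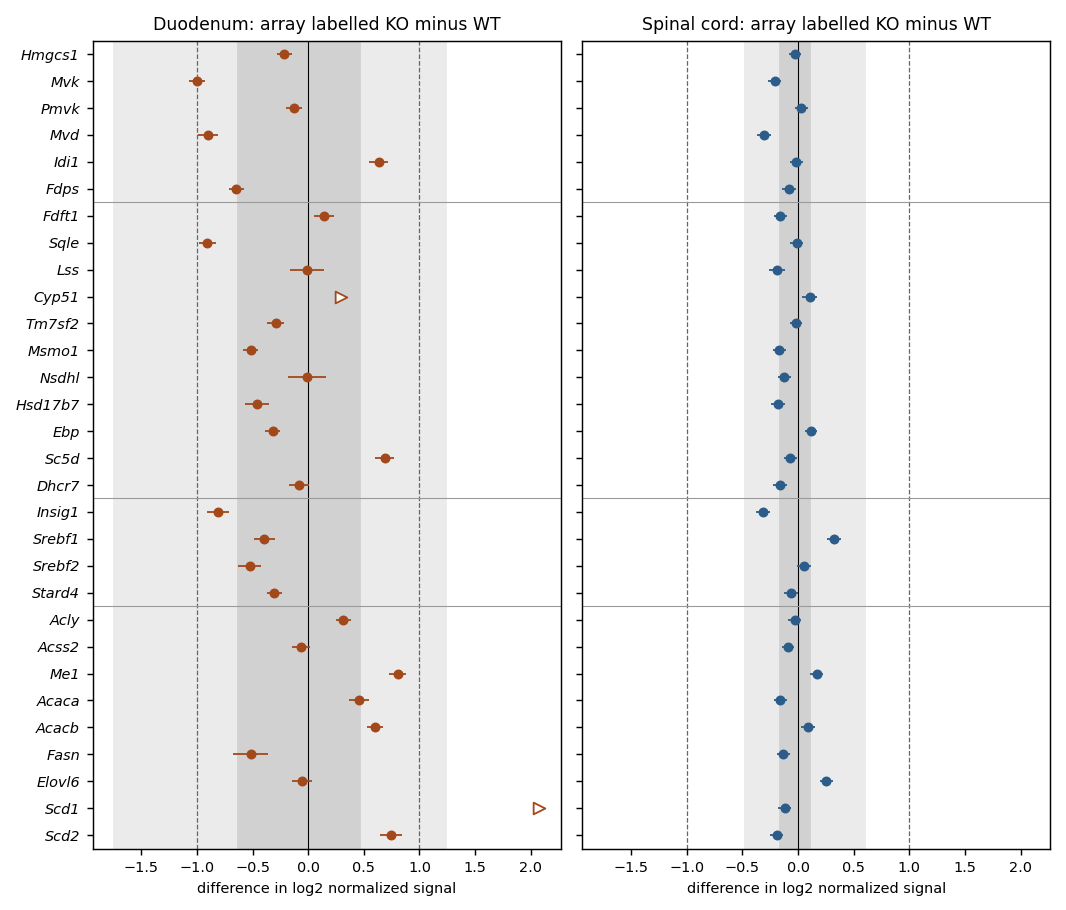
Difference of each gene between the array labelled KO and the WT array, in log2 normalized signal, in the duodenum (left) and the spinal cord (right). Bars are the technical SD between spots, open triangles are lower bounds, dashed lines mark 2-fold, and the shaded bands hold the central 50% (dark) and 90% (light) of all genes with a value. Members lie inside 2-fold in both tissues apart from *Scd1* in the duodenum.

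Of the 6 genes of the mevalonate segment, 5 were lower on the KO-labelled duodenum array and the median was −0.43, where 47.7% of all genes with a value were above 0. *Mvk*, mevalonate kinase, had signals of 456 in WT and 1084 on the brighter KO-labelled array, which after scaling is a difference of −0.997, just inside 2-fold. Its second probe gave −1.12. *Mvd*, which makes isopentenyl diphosphate, differed by −0.90 (signals 92.7 and 236), and *Fdps*, farnesyl diphosphate synthase, by −0.65 (533 and 1617). *Hmgcs1* (−0.21) and *Pmvk* (−0.13) were closer to 0. The exception was *Idi1*, the isomerase of isopentenyl diphosphate, with signals of 95.2 and 701 and a difference of 0.63.

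The squalene and sterol segment was mixed in the duodenum, with 3 of 11 genes higher, 8 lower and a median of −0.083, against the same 47.7% of all genes above 0. *Sqle*, the enzyme that oxidizes squalene, was lowest, with signals of 170 and 432 and a difference of −0.91. *Msmo1*, which removes methyl groups of the sterol ring, differed by −0.52, and *Hsd17b7*, a sterol ketoreductase, by −0.46. *Sc5d*, a late desaturase, was the highest measured on both arrays at 0.69, from signals of 115 and 876. *Cyp51*, the lanosterol demethylase, was not well above background in WT duodenum (3.12) and had 25.1 on the KO-labelled array, which gives only a bound of 0.30. *Lss* (−0.013), *Nsdhl* (−0.0088) and *Dhcr7* (−0.083) differed by less than the technical SD of 0.15, 0.17 and 0.093.

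All 4 regulators and carriers were lower on the KO-labelled duodenum array, where 47.7% of all genes with a value were above 0. *Insig1*, the feedback protein, had signals of 45.6 and 123 and a difference of −0.81 (SD 0.10), *Srebf2* had 46.8 and 154 (−0.53, SD 0.10) and *Srebf1* 51.6 and 186 (−0.40, SD 0.094). *Stard4*, a sterol carrier protein, differed by −0.30, and by −0.029 by its second probe. Relative to the median gene, *Insig1* lay between −0.84 and −0.65, *Srebf2* between −0.54 and −0.26 and *Srebf1* between −0.41 and −0.18 over the main and 8 alternative treatments of the arrays. *Stard4* changed sides, from −0.19 to 0.28.

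Of the 9 lipogenic genes, 6 were higher on the KO-labelled duodenum array, with a median of 0.46, where 47.7% of all genes with a value were above 0. That median is the value of the brightest *Acaca* probe. *Acaca* and *Acly*, which are among the 6, reversed with the probe, and by the mean of their probes they differed by −1.34 and −0.80. The *Acaca* mean includes a probe not well above background on either duodenum array (signals 2.06 and 0.881), so its size is not a measured difference. *Scd1*, the stearoyl-CoA desaturase that makes oleate, had a signal of 4.82 in WT duodenum, not well above background, and 96.5 on the KO-labelled array. After scaling that is 4.22-fold higher (2.08 on the log2 scale, technical SD 0.32). The dim WT signal of *Scd1* was itself the reference, so 2.08 is a lower bound only if spot noise is left aside. Its paralog *Scd2* was higher by 0.74 (signals 47.9 and 381). *Me1*, the malic enzyme that supplies NADPH, differed by 0.80 (178 and 1475) and *Acacb*, the acetyl-CoA carboxylase whose product restrains fatty acid import into mitochondria, by 0.60 (181 and 1303). *Fasn*, fatty acid synthase, was the exception at −0.52, from signals of 16.3 and 54.1. *Acss2* (−0.065) and *Elovl6* (−0.052) differed by less than their technical SD of 0.082 and 0.090.

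For *Acaca* and *Acly* the direction in the duodenum depended on the probe. *Acaca*, the carboxylase that makes malonyl-CoA for synthesis, differed by 0.46 by its brightest probe (signals 61.9 and 404) and by −1.01 by a dimmer one (5.63 and 13.2). *Acly* differed by 0.32 by the probe of NM_001199296 (400 and 2363) and by −1.92 by that of NM_134037 (13.9 and 17.4). Of the 10 members with at least 2 probes measured on both duodenum arrays, 4 had probes of opposite sign, the others being *Pmvk* (−0.13 and 0.037) and *Hsd17b7* (−0.46 and 0.14). In the spinal cord this held for 4 of 13, and each of their values lay between −0.34 and 0.76. With *Acaca* and *Acly* left aside, 4 of the other 7 lipogenic genes were higher.

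The scaling sets where 0 lies in the duodenum, so the same values are also given relative to the median gene. Scaled on the spiked-in controls, which takes the WT duodenum array as holding less labelled RNA, all 30 members were higher on the KO-labelled array with a median of 2.90, but so was the median gene, at 2.89. Relative to the median gene, 16 of 30 members kept their side of 0 under the main scaling and the alternatives that gave a value. Above it were 8 of these (*Scd1*, *Me1*, *Scd2*, *Sc5d*, *Idi1*, *Acacb*, *Cyp51* and *Fdft1*), and below it were 8 (*Mvk*, *Sqle*, *Mvd*, *Insig1*, *Srebf2*, *Fasn*, *Hsd17b7* and *Srebf1*). *Scd1* and *Cyp51* had a bound under 6 of the 8 alternatives and no value under both normexp corrections.

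**Figure D3:**
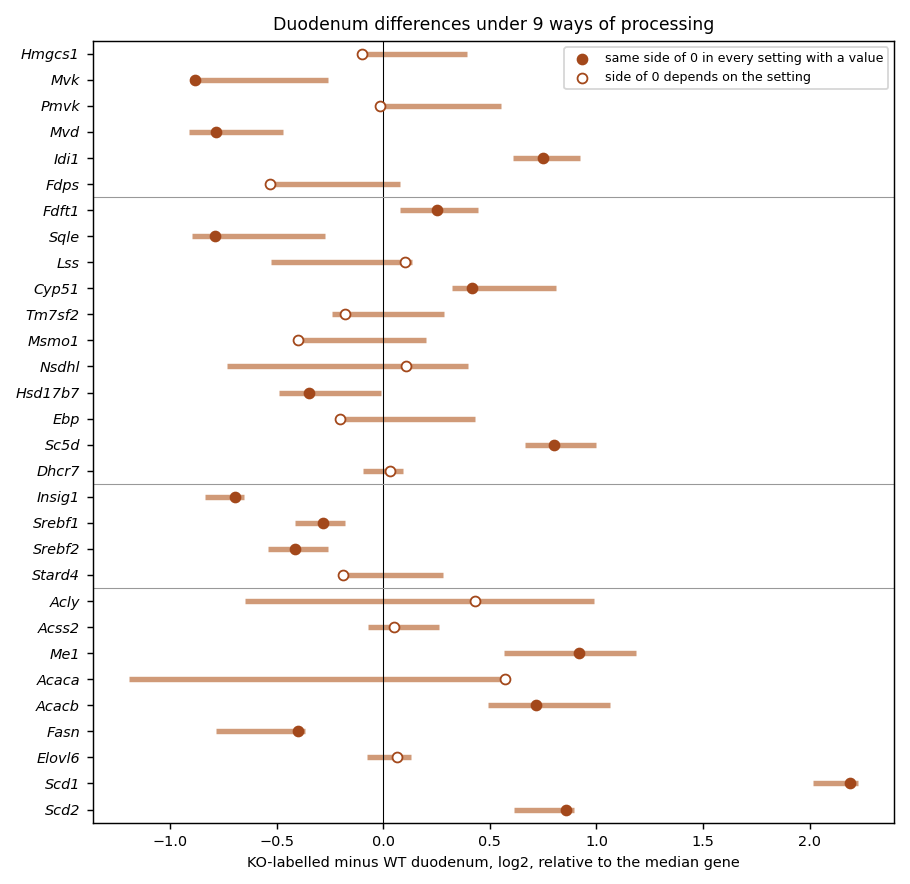
Duodenum difference of each gene relative to the median gene (x axis, log2, KO-labelled minus WT). Points are the main values, bars span the main and 8 alternative treatments, filled points kept their side of 0 wherever a value was given, and *Scd1* and *Cyp51* are lower bounds. *Insig1*, *Mvd* and *Sqle* lie below 0 and *Idi1*, *Sc5d*, *Me1* and *Scd1* above it along their whole bars, while *Acaca* and *Acly* span 0. The low end of the *Acaca* bar is the mean of its probes, which includes a probe not well above background on either duodenum array.

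Other tissue markers moved between the duodenum arrays as well. The summed pancreatic acinar level was 7340 in WT and 2648 in KO-labelled duodenum, with 2 of 5 markers at least 2-fold lower, the enterocyte level 2234 and 945 (2 of 6), and the smooth muscle level 92.5 and 46.3 (2 of 5). The enterocyte markers past 2-fold were *Fabp2* (−1.81) and *Apoa1* (−1.56), while *Vil1* (0.20), *Apoa4* (0.090), *Alpi* (−0.098) and *Sis* (−0.26) moved less. The erythroid level was 3.86 and 0.310, with 2 of 2 measured markers lower. White adipocyte markers summed to 28.7 and 20.9, none was past 2-fold, *Plin1* and *Lep* were not well above background on either duodenum array and *Adipoq* not in WT. Their part in the values of the module was not tested.

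Around the module, 45 further pathway genes were measured in 4 lists. In the spinal cord none of the 44 that were well above background was 2-fold apart in either direction. In the duodenum the 12 genes of the SREBP machinery and lipogenic regulators had a median of −0.023, with *Nr1h2*, the sterol-sensing receptor LXR beta, at −1.03 and the chaperone *Scap* at −0.23. The 13 genes of sterol export, esterification and turnover had a median of −0.0058. Among them *Cyp46a1*, which hydroxylates cholesterol in neurons, differed by −2.56 (signals 94.8 and 76.3), while the sterol exporters *Abcg5* (−0.0058) and *Abcg8* (0.28) stayed close to 0. Of the 7 genes of mevalonate inputs and isoprenoid branches, *Acat1*, a thiolase of acetoacetyl-CoA, was higher by 1.04 (119 and 1154). Of the 13 genes of elongation, desaturation and glycerolipid synthesis, *Lpin1*, a phosphatidate phosphatase, was higher by 1.42 (6.60 and 84.0), and *Fads2*, a desaturase of polyunsaturated fatty acids, differed by −1.25 (9.66 and 19.3). Of these 45 genes, 2 were thus at least 2-fold higher and 3 lower, to be read against 7.2% and 11.9% of all genes.

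The largest differences of the module lay between the tissues. Because the scalings shift all genes between tissues by different amounts, the duodenum minus spinal cord difference is given relative to the median gene of the same pair of arrays, once for the WT arrays and once for those labelled KO. Of the 30 members, 23 were below the median gene in both pairs, 4 above it in both and 3 (*Dhcr7*, *Mvd* and *Srebf2*) changed sides. At least 2-fold lower in the duodenum were 17 members in the WT pair, where 32.2% of 25223 genes were, and 14 in the KO-labelled pair, where 30.4% of 25727 were. At least 2-fold higher were the same 3 members in both pairs, where 23.8% and 25.7% of genes were. The gap between the pairs was 0.40 at the median and widest for *Scd1*, at 2.53 or more since its WT value is a bound. With 2 arrays per tissue an exact permutation test cannot give a two-sided p below 0.333, and none was made.

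**Figure D4:**
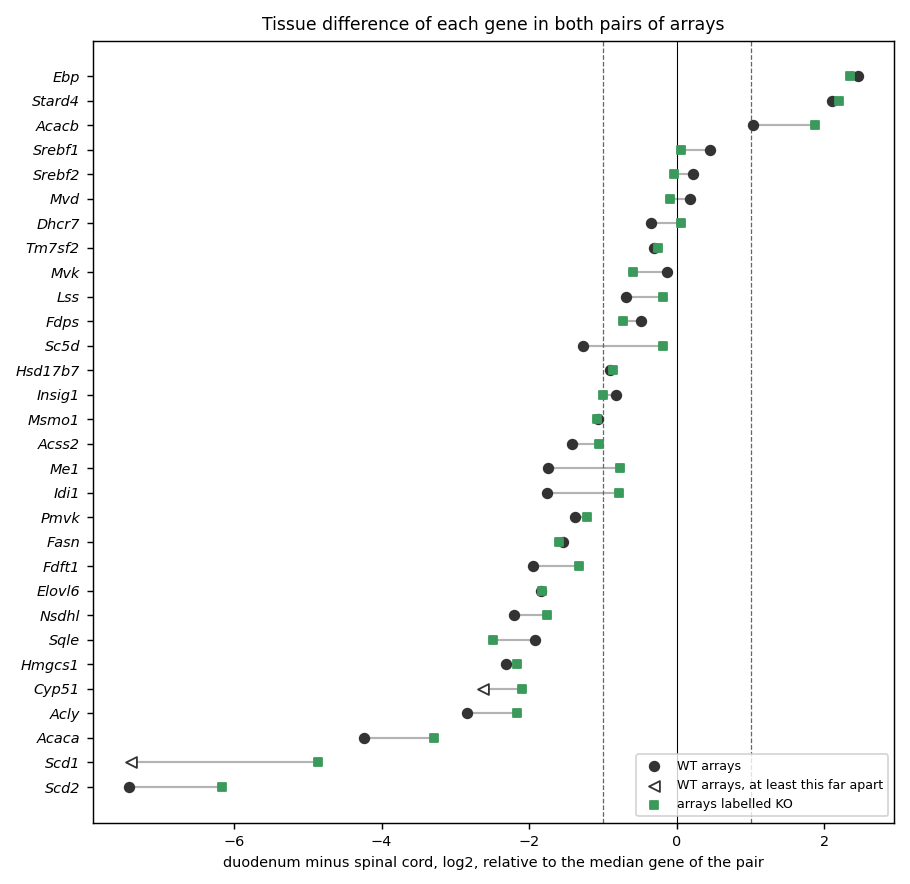
Duodenum minus spinal cord for each gene (x axis, log2, relative to the median gene of the pair), ordered by the mean of the pairs, with dashed lines at 2-fold. Circles are the WT arrays, squares the arrays labelled KO and triangles WT values that are at least this far apart. *Scd2*, *Scd1* and *Acaca* lie farthest to the left, and *Acacb*, *Stard4* and *Ebp* are the members beyond 2-fold to the right in both pairs.

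The desaturases showed the widest contrast. *Scd2*, the isoform known for its abundance in nervous tissue, had signals of 70687 and 66359 in WT and KO-labelled spinal cord and 47.9 and 381 in the duodenum. That is −7.42 and −6.16 relative to the median gene in the WT and KO-labelled pair. *Scd1* had 6976 and 6883 in the spinal cord and 4.82 and 96.5 in the duodenum, which gives at least 7.39 lower in the WT pair and −4.87 in the other. Both duodenum arrays lay far under both spinal cord arrays for either gene.

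The acetyl-CoA carboxylases went opposite ways between the tissues. *Acaca* had signals of 10075 and 9674 in the spinal cord and 61.9 and 404 in the duodenum, −4.24 and −3.29 relative to the median gene. *Acacb* had 763 and 872 in the spinal cord and 181 and 1303 in the duodenum, 1.03 and 1.87 above it. The dimmer probes of both genes had the same direction as the brightest. Over the alternatives *Acaca* stayed between −4.36 and −2.80 and *Acacb* between 0.44 and 1.87 in the 2 pairs. Of the 9 lipogenic genes, 8 were below the median gene in both pairs, among them *Acly* (−2.84 and −2.16), *Elovl6* (−1.85 and −1.82) and *Fasn* (−1.54 and −1.60). The *Acly* values are those of its brighter probe. Its dimmer probe differed by 0.21 in the WT pair, where the median gene stood at 0.63, and so lay within 2-fold of it.

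Within cholesterol synthesis most steps lay below the median gene in the duodenum, and *Ebp* stood apart above it. *Hmgcs1* (−2.31 and −2.17), *Sqle* (−1.92 and −2.49) and *Nsdhl*, a sterol dehydrogenase (−2.20 and −1.76), were more than 2-fold below the median gene in both pairs. For *Nsdhl* this held for its brighter probe. Its dimmer probe differed by −0.11 in the KO-labelled pair, where the median gene stood at 0.30, and so lay within 2-fold of it. *Ebp*, the sterol isomerase that acts late in the pathway, had signals of 3960 and 4602 in the spinal cord and 2519 and 9594 in the duodenum, 2.45 and 2.35 above it. *Stard4* had 744 and 763 in the spinal cord and 371 and 1426 in the duodenum, 2.10 and 2.19 above it, and its second probe also lay higher in the duodenum. *Tm7sf2* (−0.31 and −0.26), *Lss* (−0.69 and −0.19) and *Mvk* (−0.13 and −0.59) were within 2-fold of the median gene. The promoter windows of *Ebp* and *Hmgcs1*, printed above, both hold ATTGG, as did those of 22 of the 24 genes with a window. Its part in the tissue differences was not tested.

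The SREBP genes and *Insig1* lay within 2-fold of the median gene between the tissues. *Srebf1* was 0.45 and 0.062 above the median gene in the WT and KO-labelled pair, *Srebf2* at 0.22 and −0.038, and *Insig1* at −0.83 and −0.99. Neuron, astrocyte and oligodendrocyte markers were far lower in the duodenum by list median. Their list medians were −7.65, −4.56 and −5.79 relative to the median gene in the WT pair. The oligodendrocyte marker *Mbp* was an exception, at −0.46 and 0.40 in the WT and KO-labelled pair. The list of sterol export, esterification and turnover genes was higher, with medians of 1.67 and 2.23 in the WT and KO-labelled pair. Its exporters went both ways. *Abca1* (−1.09 and −0.65) and *Abcg1* (−2.61 and −2.33) lay below the median gene. *Abcg8* lay at least 6.25 and 7.01 above it. *Abcg5*, which with *Abcg8* forms the exporter that returns sterols to the gut lumen, lay 10.92 and 11.51 above the median gene. The part of the cell makeup of each tissue in the module's values was not tested.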

How the data were processed

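Total RNA of 4 samples, 1 per genotype and tissue, was labelled with Cy3 and hybridized to 1-colour Agilent mouse arrays. The authors extracted spot intensities with Agilent Feature Extraction 11.5.1.1 (submitters' processing notes), and per the file headers the processed signal intensity is background-subtracted and detrended within the array but not scaled between arrays. The authors also deposited a table of normalized log2 values, whose method is not given in the sources used here. It was used only as an alternative, and a quantile normalization of the 4 arrays came within a median of 0.0023 of each column.

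Control spots and outlier spots were left out, spots of a probe were averaged, and the log2 75th percentile of each array was subtracted. Each gene was represented by its probe with the highest mean level. A gene not well above background on 1 array of a pair was given only as a bound, against the higher of the lowest signal well above background on that array and the dim probe's own signal. Such a bound leaves out spot noise. NM accessions on the array were named through RefSeq (25868 of 26391 matched). Levels are relative within a gene. Depth does not apply to arrays, and their number limits the precision. The technical SD was read from the 50 probes nearest in brightness among 399 probes with 10 spots.

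With a single array per group no test was made, and 2-fold counts of members are read beside those of all genes. All members are named, with pathway genes at least 2-fold apart. A few more pathway genes (*Scap*, *Abca1*, *Abcg1*, *Abcg5*, *Abcg8*) were named after their values were seen. The members and lists were chosen with earlier results of these data known. Alternatives were normexp background correction (limma 3.58.1 in R 4.3.3, offset 50) with and without replaced local backgrounds, quantile normalization over 4 arrays or within tissue, median centring, scaling on 8 spiked-in probes, the authors' log2 table, averaging over all probes of a gene, other filters and 1.5-fold. The work was done with pandas 2.3.3 and numpy 2.4.6 (Python 3.11.15). The code was also run on simulated data, in which 200 genes well above background on both arrays were shifted far past 2-fold with small noise. They were recovered at 100% among the 16814 duodenal and the 24166 spinal cord genes. The size of the shift fixed this outcome beforehand, so it checks the code and not the precision of the arrays. No column belonged to another series.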

Additional observations from a re-analysis of the deposited data

Results flagged for a closer look

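A handful of genes differed in opposite directions between the labels in the 2 tissues, each by more than 2 technical SDs. The difference between the tissues (duodenum minus spinal cord, log2) was not tested, because each rests on 4 arrays. *Scd1* stood at least 2.08 higher in KO-labelled duodenum and at −0.12 in the spinal cord, a gap of at least 2.20. That bound leaves out spot noise, and the technical SD of the duodenum value was 0.32. *Scd2* stood at 0.74 and −0.19, a gap of 0.94. *Acaca* stood at 0.46 and −0.16, a gap of 0.62, but its second probe was at −1.01 in the duodenum. *Srebf1* stood at −0.40 and 0.32, a gap of −0.72, and *Ebp* at −0.32 and 0.12, a gap of −0.43. Relative to the median gene, however, the *Ebp* value in the duodenum changed sides under 5 of the 8 alternative treatments. The targeted gene *Ip6k2* stood at −0.21 in duodenum but 1.45 in spinal cord, a gap of −1.66, where it went against its label.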

How the results depend on the processing

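No paired analysis was possible because a single array stands for every genotype in either tissue. The median of the members in the duodenum (−0.11) was 0.051 under normexp, 0.050 with replaced backgrounds and 2.90 on spiked-in controls, where the median gene was at −0.18, −0.18 and 2.89. In the spinal cord the median gene stood at −0.45 under normexp, −0.050 with replaced backgrounds and −0.21 on spiked-in controls. There the median of the members (−0.075) was 0.16, −0.063 and −0.24. Between the WT tissues (−0.70, median gene 0.63) it was −0.23 under normexp (0.44), −0.51 with replaced backgrounds (0.74), −0.90 under quantile normalization of 4 arrays (0.34), −3.38 within tissue (−2.08), −0.48 under median centring (0.85), −5.74 on spiked-in controls (−4.41), −0.90 in the deposited table (0.33) and −0.54 over genes well above background on both arrays (0.63). It was thus below the median gene in each of these, which median centring and spiked-in scaling could not alter, as they shift all genes of an array alike. Members at least 2-fold higher in KO-labelled duodenum, 1 in the main setting, were 30 on spiked-in controls (96.2% of all genes), 0 with both arrays well above background (7.36%) and 6 at 1.5-fold (17.0%). Those at least 2-fold lower, 0 in the main setting, were 2 by the mean of a gene's probes (*Mvk* and *Acaca*, against 12.4% of all genes) and 5 at 1.5-fold (22.6%). The *Acaca* mean includes a probe not well above background on either duodenum array. The spinal cord counts were 0 under each alternative, although 38.3% of all genes were at least 2-fold lower there under normexp. With flagged backgrounds replaced that share was 0.0753%.

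For single members, 118 alternative values in the duodenum moved by more than the technical SD and 118 did not, against 70 and 170 in the spinal cord. Without subtracting the median gene, 7 and 8 of 30 members kept their sign under each alternative with a value. Between the tissues, *Lss*, *Dhcr7*, *Mvd*, *Srebf1* and *Srebf2* lay on either side of the median gene, depending on the treatment. The cause of these shifts was not tested. The dim WT duodenum array limits what can be measured, with 51.6% of probes well above background.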
